A study of Mus musculus with 20 samples.

Results

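The expression of 10 genes of senescence and of the p53 pathway was followed in mouse retina, out of 35006 genes counted in each of 20 RNA sequencing libraries. The genes were listed by name: the cyclin-dependent kinase inhibitors Cdkn1a, Cdkn2a, Cdkn2b, Cdkn1b and Cdkn1c, the tumour suppressor Trp53 and its inhibitor Mdm2, the secreted factor Gdf15, and the chromatin and nuclear lamina genes Hmgb1 and Lmnb1. The mice were wild-type C57BL/6J, with 1 retina and 1 library each. They formed 4 groups: 4 young controls and 4 old controls without treatment, and 6 young and 6 old mice that had drunk NACET, a cell-permeable ester of N-acetylcysteine, at 50 mg/kg a day for 5 days. Controls were 119 days old (young) or 668 days old (old), whereas by their titles the young NACET mice were 129 days (replicates 1 to 4) or 119 days (replicates 5 and 6), and the old NACET mice 668 (replicates 1 and 2), 581 (replicates 3 and 4) or 574 days (replicates 5 and 6). The batch tag of young NACET replicate 6 gives 129 days instead.

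Cells that enter senescence leave the cell cycle for good. Stabilised p53 turns on Cdkn1a, whose product p21 stops the cyclin-dependent kinases, and also Mdm2, whose product marks p53 for degradation and so closes a feedback loop. The Cdkn2a locus encodes both p16Ink4a, an inhibitor of CDK4 and CDK6, and p19Arf, an inhibitor of Mdm2. Senescent cells are also known for the loss of lamin B1 (Lmnb1), the release of HMGB1 from the nucleus and a secretory phenotype that can include GDF15. The retina is made mostly of neurons that have left the cell cycle for good during development, so some of these inhibitors are expressed there regardless of age.

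Before any comparison, 3 features of the libraries bear on these genes. Gene counts ranged from 17.7 to 31.1 M per library (M, 1e+06 counts), and rhodopsin, the pigment of rods, took 3.31% to 5.54% of them. Old NACET replicate 1 stood apart: the 5 lens genes examined summed to 6100 CPM (counts per 1e+06 gene counts) in it and to 0.2 to 13.8 CPM in the other 19 libraries, and the stress gene Hmox1 was at 41.6 CPM against 2.40 to 4.52 CPM elsewhere. Results that rest on this library are therefore given with and without it. Corneal and conjunctival epithelium genes, 6 in number, summed to 4.0 to 371 CPM in young NACET and 7.9 to 395 CPM in old control libraries, against 5.2 to 12.3 CPM in young controls and 2.5 to 11.1 CPM in old NACET. Young control replicates 3 and 4 and young NACET replicates 5 and 6 are labelled female and all old mice male, but Xist, the RNA of the inactive X chromosome, was at 2473 CPM in old control replicate 4, near the 2106 to 2433 CPM of the libraries labelled female. The methods of the study mention males only.

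Promoter windows from RefSeq were examined for 8 of the 10 genes, 12 windows in all. Those of Cdkn1a and Mdm2, the textbook targets of p53, and of Cdkn2b and Gdf15, which were high together with Cdkn1a in 1 library, are shown because the results below turn on these genes. Cdkn1a and Gdf15 have more than 1 window, and the first one listed is shown. Each is the 250 bases before the transcription start, 5′ to 3′, with coordinates of the GRCm38.p6 build, and capitals mark matches to the p53 half-site consensus, which reads the same on both strands.
Cdkn1a, chr17:29090729-29090978, plus strand: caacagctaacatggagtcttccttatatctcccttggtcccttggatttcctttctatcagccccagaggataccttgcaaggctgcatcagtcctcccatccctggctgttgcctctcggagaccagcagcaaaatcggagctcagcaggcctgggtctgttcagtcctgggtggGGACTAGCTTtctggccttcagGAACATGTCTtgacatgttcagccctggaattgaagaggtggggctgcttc
Mdm2, chr10:117710759-117711008, minus strand: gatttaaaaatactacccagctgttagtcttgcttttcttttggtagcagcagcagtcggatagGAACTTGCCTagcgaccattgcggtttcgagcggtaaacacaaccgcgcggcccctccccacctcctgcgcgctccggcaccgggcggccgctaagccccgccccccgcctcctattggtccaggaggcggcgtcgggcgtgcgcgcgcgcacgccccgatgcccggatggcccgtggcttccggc
Cdkn2b, chr4:89311033-89311282, minus strand: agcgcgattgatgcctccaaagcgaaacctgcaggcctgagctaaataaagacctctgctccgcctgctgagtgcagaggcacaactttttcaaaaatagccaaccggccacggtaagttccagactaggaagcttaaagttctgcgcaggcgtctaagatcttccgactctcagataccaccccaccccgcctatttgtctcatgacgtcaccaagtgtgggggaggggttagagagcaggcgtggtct
Gdf15, chr8:70632457-70632706, minus strand: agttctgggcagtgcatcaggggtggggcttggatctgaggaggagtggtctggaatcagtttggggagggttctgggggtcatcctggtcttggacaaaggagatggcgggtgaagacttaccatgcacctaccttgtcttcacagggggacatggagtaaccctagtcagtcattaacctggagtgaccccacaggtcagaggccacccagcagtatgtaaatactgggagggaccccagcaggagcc
The Cdkn1a window shown held 2 such matches, whose first bases lie 73 and 51 bases before the start, and the Mdm2 window held 1, which begins 186 bases before it. The other Cdkn1a window, at chr17:29093519-29093768, held none. No match was found in the window of Cdkn2b or in either window of Gdf15. Of all 32851 promoter windows of this length, 7.13% held at least 1 match. None of the 4 windows shown held the NRF2 core TGACNNNGC or the ATF4 core TGATGNAA on either strand, which were present in 10.2% and 3.45% of all windows. A match is a run of letters and was not tested as a binding site.

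Levels of the 10 genes spanned 3 classes. Cdkn2a was too low to judge by the limit set here, a median of under 10 counts in each of the 4 groups: its largest group median was 1 count, and the default expression filter of edgeR removed it from every test. Cdkn2b and Gdf15 were just above the limit, with largest group medians of 14 and 13 counts. At their median over the 20 libraries, 12 counts for each, counting error alone would give a coefficient of variation of 28.9%. The other 7 genes had 43 or more counts in each library. Per kilobase of exon, the median over the 20 libraries was 20.9 RPKM (CPM divided by exon length in kilobases) for Cdkn1b, 17.3 for Lmnb1, 11.6 for Mdm2, 6.12 for Cdkn1c, 2.84 for Trp53, 2.57 for Hmgb1 and 2.01 for Cdkn1a, whereas Cdkn2b and Gdf15 were at 0.371 and 0.320. Of the 10 genes, the exons of Hmgb1 have close copies elsewhere in the genome over 46.9% of their bases, those of Trp53 over 18.3% and those of Mdm2 over 6.06%, at 95% identity or more over at least 50 bases, so that reads from these stretches may have been set aside or misplaced in counting. The other 7 had none.

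**Figure D1:**
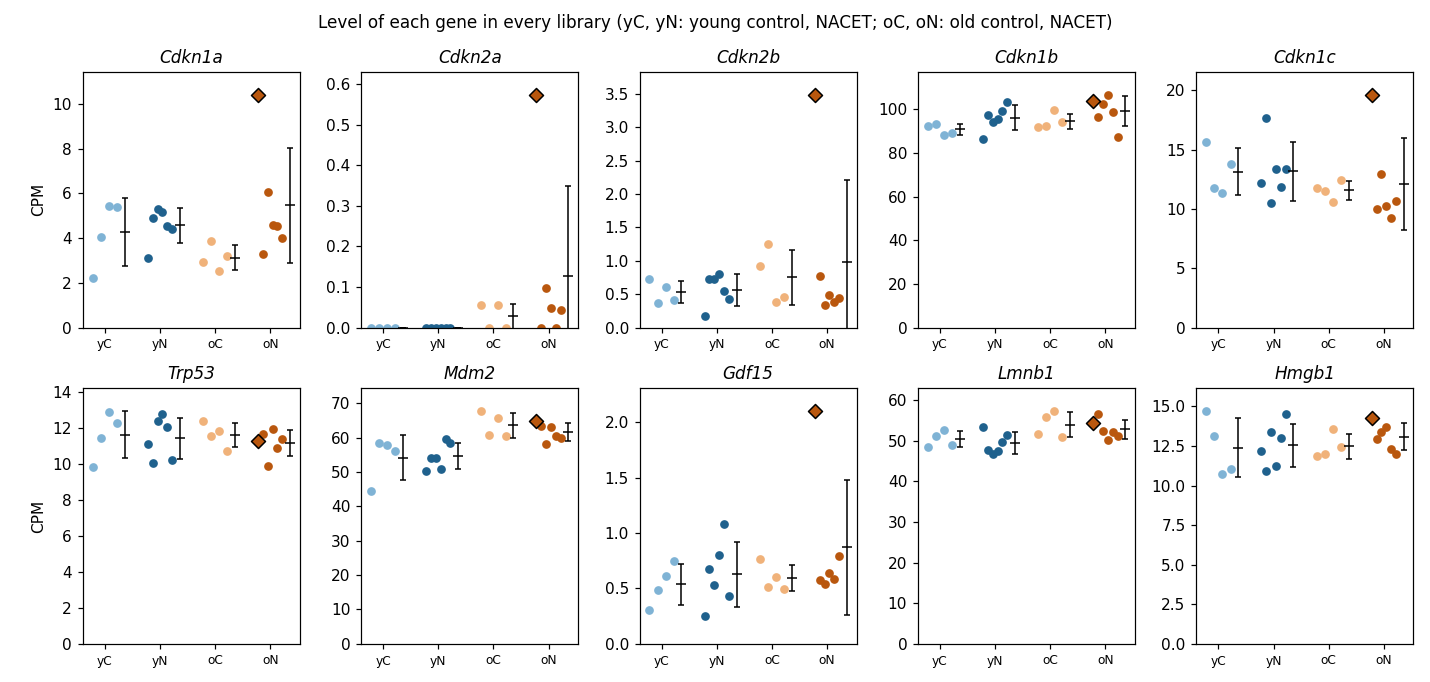
CPM of each of the 10 genes in the 20 libraries, by group (yC and yN, young control and NACET; oC and oN, old control and NACET), with the mean and SD of each group as a black bar to the right of its points, cut at 0. The outlined diamond is old NACET replicate 1, which was the highest of the 20 libraries for 5 of the 10 genes, while Mdm2 was higher in all 4 old controls than in any young control.

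None of the 9 genes tested was called between any groups at an adjusted p under 0.05 (edgeR quasi-likelihood test, adjusted over all genes tested). The share of all genes called was 1.42% between old and young controls, 0.543% between old NACET and old control mice, 0% between young NACET and young control mice, 4.88% between old and young NACET mice, and 0% for the interaction of age with NACET. A count of 0 among 9 does not set these genes apart from all genes. DESeq2 also called none of them, but it gave no adjusted p to Gdf15 between controls or to Cdkn2b between old and young NACET mice. Of the genes it gave an adjusted p, it called 4.57% between controls, 2.19% in old mice under NACET, 0% in young mice, 6.89% between old and young NACET mice and 0.424% for the interaction. At an unadjusted p under 0.05, 1 of 9 passed between old and young controls (Mdm2), 1 between old NACET and old controls (Cdkn1a) and 1 between old and young NACET mice (Mdm2), where 16.3%, 14.4% and 21.1% of all genes did. None of the 9 passed at that limit between young NACET and young controls or for the interaction, where 4.36% and 6.19% of all genes did. Each group serves in 2 of the 4 pairwise comparisons, so these are not independent.

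**Figure D2:**
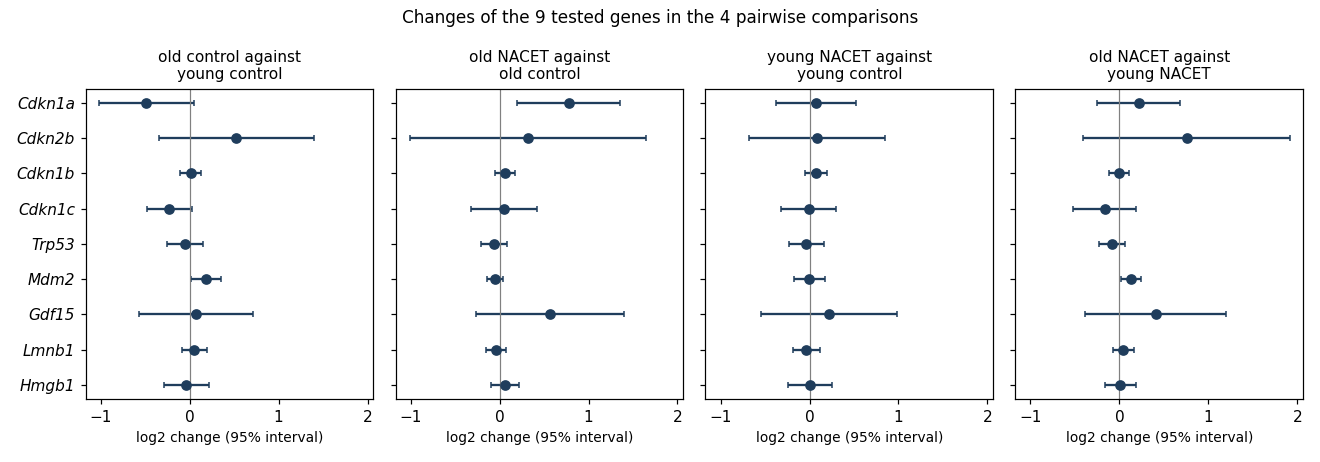
Log2 change (points) with its 95% interval (bars) for the 9 tested genes in the 4 pairwise comparisons, from edgeR. Cdkn1b, Trp53, Mdm2, Lmnb1 and Hmgb1 had narrow intervals, while Cdkn2b and Gdf15, the genes with the fewest counts, had the widest.

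Mdm2, on chromosome 10 (117125944 to 117147814, minus strand, mm9), encodes the ubiquitin ligase that limits p53. Its level was 44.4, 58.4, 58.0 and 56.0 CPM in the young controls and 67.6, 60.7, 65.6 and 60.4 CPM in the old controls. All 4 old controls were above all 4 young controls, and 11.3% of all genes tested were likewise without overlap between these groups. The difference was 0.18 on the log2 scale (SE 0.08, 95% interval 0.01 to 0.35), a fitted fold of 1.13, and edgeR gave an adjusted p of 0.267. Young control replicate 1 was far below the other 3, and without it the difference was 0.11 (adjusted p 0.279).

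Under NACET, Mdm2 ranged from 50.2 to 59.4 CPM (median 54.1, n = 6) in young mice and from 58.0 to 64.8 CPM (median 61.7, n = 6) in old mice. In old mice 5 of the 6 libraries were above every young NACET library. The difference was 0.13 (SE 0.05, 95% interval 0.02 to 0.24) with an adjusted p of 0.180 in edgeR. It became a call when labelled sex was added as a covariate (0.19, adjusted p 0.0249) or when the labelled females were left out (0.19, adjusted p 0.0394). In libraries low in lens and corneal counts it was 0.07 (adjusted p 0.638), with fewer libraries in the fit. It was 0.06 when only 119-day and 668-day mice were kept. In these groups all such young mice are labelled female and all such old mice male, so this setting cannot tell age from sex. Between NACET and control mice its log2 change was -0.05 (95% interval -0.14 to 0.04) in old and -0.00086 (-0.17 to 0.17) in young mice, and both intervals include 0.

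Trp53, on chromosome 11 (69393861 to 69405375, plus strand), encodes p53 itself. It varied little, from 9.84 to 12.8 CPM over the 20 libraries, and its group means were 11.6 ± 1.31 (young control), 11.4 ± 1.14 (young NACET), 11.6 ± 0.684 (old control) and 11.2 ± 0.732 CPM (old NACET; SD, n = 4, 6, 4 and 6). The groups overlapped in every comparison. Its log2 change was -0.05 (95% interval -0.25 to 0.15) in old against young controls and -0.06 (-0.21 to 0.09) in old NACET against old controls. The level of this messenger RNA does not measure p53 activity, which is set mainly through the stability of the protein.

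Cdkn1a, on chromosome 17 (29227924 to 29237667, plus strand), encodes p21, the inhibitor through which p53 stops the cell cycle. In the old controls it was at 2.94, 3.86, 2.52 and 3.20 CPM, and in old NACET mice it ranged from 3.27 to 10.4 CPM with a median of 4.55. In old NACET mice 5 of 6 libraries exceeded every old control, and the top value belongs to replicate 1. Rod genes summed to 56596 to 67459 CPM in old NACET and 64181 to 77909 CPM in old control libraries, and their part in this difference was not tested. In whole tissue, fewer cells of a type and less RNA per cell cannot be told apart. The log2 difference was 0.78 (SE 0.27, 95% interval 0.20 to 1.36), with an adjusted p of 0.200 in edgeR. Without old NACET replicate 1 it was 0.49 (SE 0.18), also with an adjusted p of 0.200, and with only the 668-day mice, of which replicate 1 is 1 of 2 under NACET, it was 1.1 (SE 0.36, adjusted p 0.545).

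The young controls had 2.22, 4.07, 5.44 and 5.39 CPM of Cdkn1a, and the young NACET mice 3.10 to 5.29 CPM (median 4.73). In these young groups NACET and control mice overlapped fully, with a log2 change of 0.08 (95% interval -0.37 to 0.52). With labelled males only it was 0.52 (SE 0.27, adjusted p 1.00), and without young control replicate 1 it was -0.12. Old controls were lower than young controls by 0.49 on the log2 scale in the fit (log2 change -0.49, 95% interval -1.02 to 0.05, adjusted p 0.357 in edgeR). The pair of young controls with the highest values, replicates 3 and 4, are those labelled female, and with labelled sex as a covariate the log2 change was -0.05 (adjusted p 0.949). All old mice are labelled male, so in that fit age rests on the young controls labelled male. One of these is replicate 1, the lowest young control, and without it the log2 change was -0.69 (adjusted p 0.0649 in edgeR). The interaction, which asks whether NACET acts differently in old and young mice, was 0.70 (95% interval -0.07 to 1.47, adjusted p 0.822). It was 0.42 without old NACET replicate 1, 0.26 with labelled males only and 0.90 without young control replicate 1 (adjusted p 0.939, 0.986 and 0.384).

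Cdkn2b, on chromosome 4 (88952198 to 88956941, minus strand), encodes p15Ink4b, an inhibitor of CDK4 and CDK6 that answers to TGF-beta. It was at 0.722, 0.362, 0.610 and 0.419 CPM in young controls and 0.925, 1.25, 0.383 and 0.457 CPM in old controls. In old NACET mice replicate 1 was at 3.48 CPM, which was 73 counts, and the other 5 were at 0.341 to 0.770 CPM. The old NACET mean was thus 0.986 ± 1.23 CPM (SD, n = 6) with that library and 0.486 ± 0.168 CPM (n = 5) without it. Against old controls the log2 change turned from 0.32 (95% interval -1.01 to 1.65) to -0.69 when replicate 1 was left out, with adjusted p-values of 0.868 and 0.377 in edgeR. Old against young controls it was 0.53 (-0.34 to 1.40), and 0.09 without old control replicate 2, the library with the most corneal genes.

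Cdkn2a lies next to it on chromosome 4 (88920377 to 88940557, minus strand), and because reads were summed over the gene its products p16Ink4a and p19Arf cannot be told apart. No read was counted in any of the 10 young libraries, which held 218 M gene counts together and so allow a level of up to 0.0137 CPM. In the old controls the counts were 1, 0, 1 and 0, and in old NACET mice 12, 0, 2, 1, 0 and 1 (replicates 1 to 6). Reads were thus seen in 6 of 10 old libraries and none of 10 young ones, at a pooled 0.0827 CPM in the old (95% exact Poisson interval 0.0490 to 0.131, counting error only). Without old NACET replicate 1 the pooled level was 0.0305 CPM (0.0112 to 0.0664), from 6 counts in 9 libraries, and this interval overlaps that of the young libraries. With no filter on low counts the old NACET against young NACET difference had an unadjusted p of 0.0089 and an adjusted p of 0.131 in edgeR, and its fitted fold change, which is set against libraries at 0, is not given. DESeq2 gave it no adjusted p. Both fits include old NACET replicate 1, which held 12 of the 16 counts of its group, and neither is given without it.

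Cdkn1b (p27Kip1) and Cdkn1c (p57Kip2) are inhibitors that keep differentiated cells out of the cell cycle, and both were well above the limit of counts. Cdkn1b, on chromosome 6 (134870419 to 134875531, plus strand), was the steadiest inhibitor, at 86.5 to 107 CPM over all libraries, a coefficient of variation of 5.98%. Its log2 changes were 0.01 in old against young controls (95% interval -0.11 to 0.13), 0.06 in old NACET against old controls (-0.05 to 0.18) and 0.07 in young NACET against young controls (-0.05 to 0.19). The groups overlapped in each of these comparisons.

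Cdkn1c, on chromosome 7 (150644255 to 150646955, minus strand), had 15.7, 11.8, 11.4 and 13.8 CPM in young controls and 11.8, 11.5, 10.6 and 12.5 CPM in old controls. The groups overlapped, and the log2 change was -0.23 (SE 0.12, 95% interval -0.49 to 0.03, adjusted p 0.366 in edgeR). In old NACET mice replicate 1 was at 19.6 CPM and the others at 9.21 to 13.0 CPM. Without replicate 1 the difference from old controls turned from 0.05 to -0.13, and neither passed the test (adjusted p 0.928 and 0.569).

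Gdf15, on chromosome 8 (73153292 to 73156355, minus strand), encodes a stress-induced cytokine that p53 and the integrated stress response can both turn on. Young controls had 0.309, 0.483, 0.610 and 0.744 CPM and old controls 0.762, 0.515, 0.602 and 0.498 CPM, which overlapped. Old NACET replicate 1 was at 2.1 CPM and the other 5 at 0.537 to 0.792 CPM. The log2 change in old NACET against old controls was 0.57 (95% interval -0.26 to 1.40, adjusted p 0.536 in edgeR) with this library and 0.10 without it. Young NACET mice ranged from 0.254 to 1.08 CPM (median 0.603), a log2 change of 0.22 (-0.55 to 0.98) from young controls.

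Lmnb1 and Hmgb1 are the genes whose proteins senescent cells are known to lose or release. Lmnb1, a component of the nuclear lamina on chromosome 18 (56867467 to 56913078, plus strand), had means of 50.3 ± 1.93 CPM in young controls, 49.4 ± 2.62 in young NACET, 53.9 ± 3.12 in old controls and 52.8 ± 2.32 in old NACET mice (SD). Old controls were thus not lower than young controls, and the log2 change was 0.05 with a 95% interval of -0.09 to 0.19. Hmgb1, which encodes a DNA-bending chromatin protein and lies on chromosome 5 (149858278 to 149865089, minus strand), was at 12.4 ± 1.86, 12.6 ± 1.37, 12.5 ± 0.777 and 13.1 ± 0.859 CPM in the same order of groups. Its log2 change in old against young controls was -0.04 (-0.29 to 0.21). A change in where the protein is found would not appear in these counts.

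Old NACET replicate 1 was the highest of the 20 libraries for Cdkn1a, Cdkn2a, Cdkn2b, Cdkn1c and Gdf15. Against the median of the other 5 old NACET libraries it held 7.91 times the level of Cdkn2b, 3.59 times that of Gdf15, 2.30 times that of Cdkn1a and 1.91 times that of Cdkn1c. The other 5 genes tested were within 0.992 to 1.1 times. Thus 4 of the 9 tested genes were above 1.5 times, where 4.91% of all genes were, and this library was the highest of 20 for 8.42% of all genes.

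Among known p53 targets outside the 10 genes, 4 of 31 were above 1.5 times in this library: Perp, a component of desmosomes (6.06 times), Fas, a death receptor (4.57 times), Ccng1, the cyclin G1 gene (2.21 times, 230 against 104 CPM) and Tnfrsf10b, another death receptor (1.60 times). Of 28 genes of the secretory phenotype 7 were, among them Cxcl10, a chemokine (4.56 times), Igfbp7 (3.09 times) and Tgfb1 (2.68 times). Of 19 regulators of p53 and of 21 nuclear architecture genes none was, and 1 of 20 cell cycle genes was (Ccnd2, 2.86 times). Over the 20 libraries, however, Perp was highest in old control replicate 2 and Ccnd2 in young control replicate 4. The other genes named in this paragraph were highest in old NACET replicate 1. The lens genes given above moved with these values in the same library, and their part in them was not tested.

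**Figure D3:**
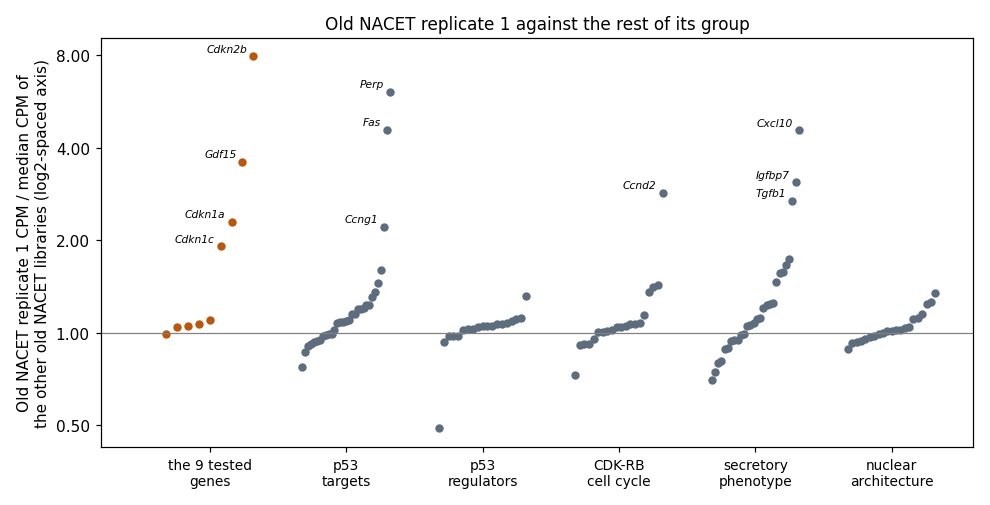
CPM in old NACET replicate 1 divided by the median CPM of the other 5 old NACET libraries, on an axis with log2 spacing, for the 9 tested genes (orange) and for 5 lists of pathway genes (grey), each sorted by ratio. Genes at over 1.9 times are named, and Cdkn2b at 7.91 times is the highest of all genes drawn.

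The wider pathway was followed through 143 other genes in 5 lists: 32 p53 targets, 20 p53 regulators, 25 genes of the CDK and RB cell cycle, 45 of the secretory phenotype and 21 of nuclear architecture. Between old and young controls 1 of 116 tested was called, against 1.42% of all genes. It was Crebbp, which encodes a histone acetyltransferase that also acetylates p53, and it fell by 0.28 on the log2 scale (SE 0.06, adjusted p 0.0482 in edgeR), from 71.4 to 87.6 CPM in young controls to 63.5 to 74.4 CPM in old controls. Its adjusted p was 0.176 with labelled sex as a covariate, 0.227 with labelled males only, 0.415 without the libraries with Xist, 0.461 in libraries low in lens and corneal counts and 0.113 with the replicate block, and no pathway gene was called between controls under any of these 5 settings. None was called between NACET and control mice of either age or for the interaction. At an unadjusted p under 0.05 there were 21 of 116 between controls, 12 of 118 in old mice under NACET, 9 of 116 in young mice, 29 of 114 between NACET groups and 11 of 120 for the interaction, beside 16.3%, 14.4%, 4.36%, 21.1% and 6.19% of all genes. DESeq2 called 1 of 118 in old mice, 0 of 142 in young mice and 2 of 135 for the interaction, beside the 2.19%, 0% and 0.424% of all genes given above. The median log2 change of the pathway genes tested was 0.01 between old and young controls and 0.001 between old NACET and old control mice, beside -0.0068 and 0.002 over all genes.

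Between old and young NACET mice 5 of 114 were called (4.39%), beside 4.88% of all genes in either direction. There was 1 in each list and all were higher in old mice, where 2.24% of all genes were called higher. Trp53inp1, a p53 target that promotes cell death and autophagy, was higher by 0.32 (SE 0.09, adjusted p 0.0487 in edgeR), at 47.4 to 69.4 CPM against 37.5 to 52.0 CPM. Mdm4, the partner of Mdm2 in holding p53 in check, was higher by 0.22 (adjusted p 0.0420), and Rb1, the retinoblastoma protein that the CDK inhibitors keep active, by 0.26 (adjusted p 0.0355). Icam1, an adhesion molecule of inflamed endothelium, was higher by 1.09 (SE 0.28, adjusted p 0.0324), at 0.731 to 1.72 CPM against 0.254 to 0.913 CPM. Ezh2, the histone methyltransferase that silences the Cdkn2a locus, was higher by 0.21 (adjusted p 0.0397). Between the same groups, rod genes summed to 56596 to 67459 CPM in old and 68190 to 84483 CPM in young mice and microglial genes to 27.1 to 33.6 and 16.4 to 26.7 CPM, and their part in these calls was not tested. No pathway gene was called without old NACET replicate 1, 2 or 4 or with only the 119-day and 668-day mice, where fewer libraries entered the fit. The 119-day mice in this comparison are all labelled female and the 668-day mice male. Over the fits that left out 1 library, the log2 changes were 0.27 to 0.37 for Trp53inp1, 0.19 to 0.25 for Mdm4, 0.21 to 0.28 for Rb1, 0.95 to 1.27 for Icam1 and 0.19 to 0.23 for Ezh2. With labelled sex as a covariate, Icam1 and Ezh2 were not called (edgeR adjusted p 0.0820 and 0.0661), while Trp53inp1, Mdm4 and Rb1 still were. Of these genes, only Icam1 was called in libraries low in lens and corneal counts (1.54, adjusted p 0.0427). There Trp53inp1 was 0.14 (adjusted p 0.443), Rb1 0.20 (0.200), Ezh2 0.17 (0.303) and Mdm4 0.23 (0.0735). Ezh2 was higher in all 6 old NACET libraries than in any young NACET library, and for the other 4 genes 5 of 6 were. These 5 genes were named because they were called between these same groups. The share of all genes without overlap between them is not given, so this separation is a description only.

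**Figure D4:**
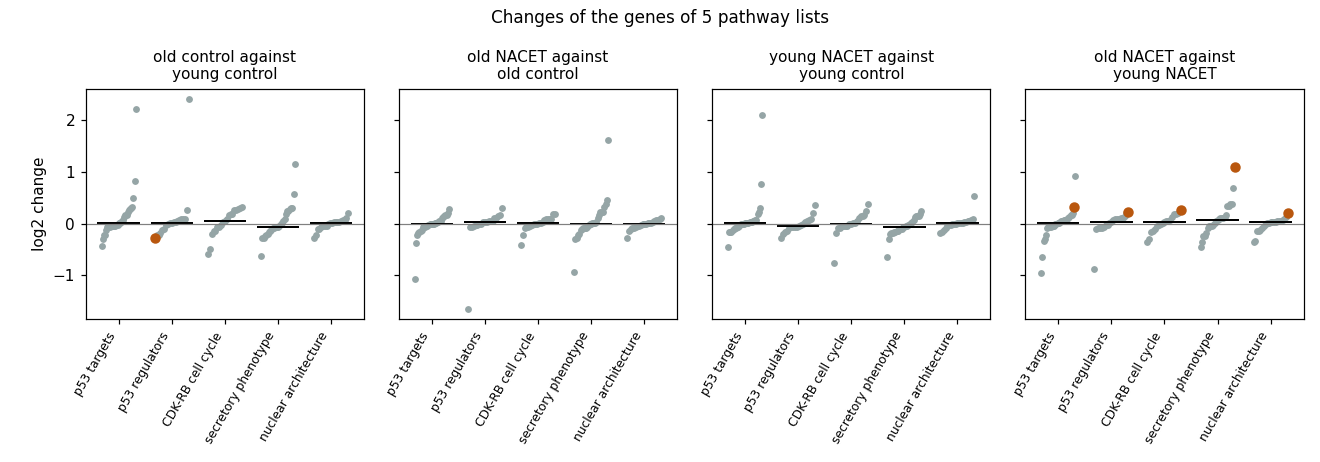
Log2 change of each tested gene of the 5 lists in the 4 pairwise comparisons, sorted within a list, with genes called at an adjusted p under 0.05 in orange, others in grey and the median of each list as a black line. The medians lie near 0, and 6 points are orange: Crebbp among the controls and 5 genes between old and young NACET mice.

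Among the p53 targets and regulators, Perp and Trp63 had the largest log2 changes between old and young controls, and both are also genes of stratified epithelium. Neither was called. All 4 old controls were above all 4 young controls for each, and 11.3% of all genes tested were likewise without overlap between these groups. Both genes were chosen after their values were seen. Perp was at 9.64 ± 10.6 CPM in old controls against 2.07 ± 0.765 CPM in young controls (SD, n = 4 each; log2 change 2.22, adjusted p 0.0985), and Trp63 at 1.51 ± 1.76 against 0.289 ± 0.0975 CPM (2.41, adjusted p 0.123). The corneal and conjunctival genes spread widely in the old controls too, as given above, and their part in these changes was not tested.

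The genes whose levels across the 20 libraries were most like those of each member, by Pearson's correlation of log2 CPM, are given as a description only. For Cdkn1a they were Pmp22 (r = 0.86, 0.80 without old NACET replicate 1), Fgfr1 (0.80, 0.68) and Idh2 (0.79, 0.72). For Cdkn2b they were Cd44 (0.84, 0.62), Hspb1 (0.83, 0.62) and Col6a3 (0.82, 0.62), and for Gdf15 Dock5 (0.82, 0.66), Zbtb8b (0.82, 0.67) and Col4a1 (0.79, 0.53). These pairs thus owe part of their likeness to 1 library. For Mdm2 they were Aebp2 (0.89, 0.89), Gm11953 (0.87, 0.87) and Mfn1 (0.87, 0.87), for Lmnb1 Trpc1 (0.89, 0.89), Vldlr (0.87, 0.89) and Lca5 (0.87, 0.87), and for Trp53 Incenp (0.81, 0.81), Wdfy3 (0.79, 0.78) and Ndor1 (0.77, 0.77), which moved by 0.02 or less without it. For Cdkn1b they were Tmx3 (0.83, 0.83), Eif1ax (0.83, 0.82) and Mzt1 (0.83, 0.82), for Cdkn1c Eef1a1 (0.89, 0.91), Ubxn1 (0.87, 0.83) and Gm13456 (0.87, 0.89), and for Hmgb1 Uba3 (0.85, 0.89), Zfp62 (0.85, 0.84) and Rps27a (0.84, 0.87). All points share library depth and tissue composition.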

How the data were processed

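Retinal polyA RNA was sequenced in 20 C57BL/6J mice. The deposited files hold unnormalized read counts for each gene. The authors aligned single-end TruSeq reads to mm9 with TopHat2 2.1.0 and counted them over exons, without regard to strand, with HTSeq 0.11.2. The annotation is not given in the sources used here. An unnamed feature, 0.00094% to 0.0022% of counts, was left out. Groups came from the labels. Tests used edgeR 4.0.16 under R 4.3.3 (normalization by TMM, default expression filter, quasi-likelihood test, Benjamini-Hochberg adjustment over all genes, called under 0.05), with 1 fit per pair of groups and all 20 libraries for the interaction. The code was tested on simulated data. CPM used all gene counts. Gene positions and exon lengths came from GENCODE for mm9, and copies from blastn 2.17.0. A count of 0 allows up to 3 counts, 0.0965 to 0.169 CPM per library, and intervals of counts cover counting error only. Separate animals are replicates. The 10 genes and all lists were chosen with earlier results of these data known. Named genes were the 10, the called genes of each list (at most 5 a comparison) and the 3 genes most like each of the 10 that was not too low. Genes named for a high ratio in 1 library, Perp and Trp63 were chosen after their values were seen. Alternatives were RLE scaling, DESeq2 1.42.0, other filters, a robust fit, a replicate block, 1 fit of all groups, sex, age cohorts and leaving out each library. Libraries low in lens and corneal counts were an alternative added after seeing the data.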

Additional observations from a re-analysis of the deposited data

Results flagged for a closer look

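Within each group, the highest and lowest library of the 9 genes was compared with its nearest neighbour by Dixon's criterion, and 4 of 36 groups had a library far from the others. Chance gives about 1 in 20 for a single gene and group. The 36 are 9 genes over the same 20 libraries and so are not independent, and their count cannot be set against that rate. In old NACET mice, replicate 1 was far above the others for Cdkn2b (3.48 CPM, the next at 0.770 CPM), Cdkn1c (19.6 CPM, the next at 13.0 CPM) and Gdf15 (2.1 CPM, the next at 0.792 CPM). In young controls, replicate 1 was far below the others for Mdm2 (44.4 CPM, the next at 56.0 CPM).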

How the results depend on the processing

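None of the 9 genes was called in any of the 5 comparisons under any alternative, except Mdm2 between old and young NACET mice. It was called with labelled sex as a covariate, with labelled males only and with libraries without Xist only. In this comparison labelled males only and libraries without Xist only are the same libraries and the same fit. DESeq2 gave no adjusted p to Gdf15 between controls or to Cdkn2b between NACET groups. Replicate numbers did not pair the libraries (same-number correlations from -0.156 to 0.121). With the replicate block, calls among the 143 pathway genes went from 1 to 0 between controls and from 5 to 0 between NACET groups (over all genes from 1.42% to 0.989% and from 4.88% to 2.59%), and 3 signs turned: in young mice under NACET Cdkn1c was 0.00020 and Hmgb1 -0.067, and Cdkn2b was -0.031 for the interaction.

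Calls among the pathway genes between controls (1) became 4 with DESeq2 and with all 4 groups in 1 fit, where 4.57% and 2.71% of all genes were called, 2 with no filter, a filter at 1 CPM or a robust fit, and 0 with sex as a covariate, labelled males only, without Xist or with libraries low in lens and corneal counts (0.317% to 0.479% of all genes), and ranged from 0 to 2 when 1 library was left out. Between NACET groups (5) they became 9 with DESeq2 (6.89% of all genes), 7 with sex as a covariate (6.75%) and 6 with labelled males only or without Xist (6.1%). They were 6 with no filter (3.08%), 4 with a filter at 1 CPM (5.16%) and 3 with all groups in 1 fit (5.76%). They were 0 in 119-day and 668-day mice (1.29%), where labelled sex goes with age, and 3 in libraries low in lens and corneal counts (2.81%). When 1 library was left out they ranged from 0 to 7. DESeq2 called 1 in old mice under NACET (2.19% of all genes) and 2 for the interaction (0.424%), which ranged from 0 to 1 when 1 library was left out. The cause was not tested.

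Signs of log2 changes that were not called also turned. With labelled sex as a covariate, Cdkn1b was -0.027 and Trp53 0.069 between controls, Mdm2 0.027 under NACET in young mice and Cdkn1b 0.044 between NACET groups. With labelled males only, Cdkn1b was -0.027 and Trp53 0.070 between controls, young NACET values were Cdkn1b -0.012, Trp53 0.098, Mdm2 0.0081 and Hmgb1 -0.24, Cdkn1b was 0.036 between NACET groups, and interactions were Cdkn1b 0.069 and Lmnb1 0.0036. Without Xist-positive libraries, Cdkn1b was -0.033 and Trp53 0.099 between controls, the values within and between NACET groups were those of labelled males, and the Cdkn1b interaction was 0.077. In libraries low in lens and corneal counts, old NACET values were Cdkn2b -0.40, Cdkn1c -0.058 and Gdf15 -0.10, young NACET values Cdkn1a -0.15, Cdkn2b -0.80, Cdkn1c 0.0069, Mdm2 0.050, Gdf15 -0.63 and Lmnb1 0.11, NACET group values Lmnb1 -0.10 and Hmgb1 -0.15, and interactions Cdkn1c -0.064 and Hmgb1 -0.12. In 119-day and 668-day mice, old NACET values were Mdm2 0.0060 and Lmnb1 0.031, young NACET values Cdkn2b -0.087, Mdm2 0.13 and Lmnb1 0.011, NACET group values Cdkn1c 0.17 and Hmgb1 -0.080, and interactions Trp53 0.021, Lmnb1 0.012 and Hmgb1 -0.047. Mdm2 in young mice under NACET was 0.00062 with DESeq2, 0.0039 with no filter, 0.0018 with a filter at 1 CPM and 0.0024 with all groups in 1 fit.

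Leaving out 1 library turned signs within these ranges. Between controls they were -0.018 to 0.048 for Cdkn1b, -0.11 to 0.0060 for Trp53, -0.094 to 0.25 for Gdf15 and -0.10 to 0.065 for Hmgb1. In old mice under NACET they were -0.69 to 0.76 for Cdkn2b and -0.13 to 0.12 for Cdkn1c, both turned only by old NACET replicate 1. In young mice they were -0.12 to 0.22 for Cdkn1a, -0.076 to 0.28 for Cdkn2b, -0.11 to 0.10 for Cdkn1c, -0.088 to 0.026 for Trp53, -0.069 to 0.041 for Mdm2, -0.017 to 0.40 for Gdf15 and -0.050 to 0.12 for Hmgb1. Between NACET groups they were -0.067 to 0.32 for Cdkn1a, -0.25 to 0.92 for Cdkn2b and -0.060 to 0.64 for Gdf15, turned only by old NACET replicate 1, and -0.026 to 0.025 for Cdkn1b and -0.037 to 0.058 for Hmgb1. For the interaction they were -0.77 to 0.66 for Cdkn2b, -0.042 to 0.020 for Cdkn1b, -0.13 to 0.17 for Cdkn1c, -0.089 to 0.024 for Trp53, -0.092 to 0.016 for Mdm2, -0.13 to 0.58 for Gdf15, -0.043 to 0.033 for Lmnb1 and -0.055 to 0.11 for Hmgb1. The counts of Cdkn2a, Cdkn2b and Gdf15 limit what could be detected.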
